A study of Mus musculus with 48 samples.

Results

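The urea cycle and arginine genes are 9 genes, Nags, Cps1, Otc, Slc25a15, Ass1, Asl, Arg1, Arg2 and Oat. The list was set by symbol, with earlier results of these data known, and all 9 were found among the 22055 genes listed in the deposited tables. They were followed by RNA-seq of polyadenylated RNA and by Ribo-seq, which sequences the fragments (footprints) that ribosomes protect from nuclease, in liver, kidney, lung, heart, brain and retina of C57BL/6 mice labelled wild-type. Each tissue was taken on embryonic day 15.5 (E15.5) and on postnatal day 42 (P42), with 2 biological replicates in every group, which gives 24 groups and 48 libraries. No treatment or engineered allele is named in the labels, and nothing in them says whether a replicate is 1 animal or pooled tissue.

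The urea cycle turns the nitrogen of ammonia and aspartate into urea. Its first steps run in the mitochondrion, where N-acetylglutamate made by NAGS activates carbamoyl phosphate synthetase (CPS1) and OTC joins carbamoyl phosphate to ornithine. Citrulline leaves and ornithine enters by the ornithine carrier encoded by Slc25a15. In the cytosol ASS1 and ASL make arginine, which the arginase ARG1 splits into urea and ornithine. The complete cycle is a known property of the periportal hepatocyte, while the kidney proximal tubule is known to use ASS1 and ASL to make arginine from circulating citrulline. ARG2 is the mitochondrial arginase found outside the liver, and OAT, a mitochondrial aminotransferase, links ornithine to proline and glutamate.

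By the GENCODE M21 annotation of GRCm38, Nags lies at chr11:102145513-102149477 on the plus strand, Cps1 at chr1:67123026-67231259 plus, Otc at chrX:10252305-10321024 plus, and Slc25a15 at chr8:22375551-22398597 minus. Ass1 lies at chr2:31470207-31520672 plus, Asl at chr5:130011258-130029247 minus, Arg1 at chr10:24915221-24927484 minus, Arg2 at chr12:79130777-79156301 plus, and Oat at chr7:132557478-132576398 minus. All are protein coding. Exons of Arg2 overlap Vti1b and Gm48780 on the other strand, and those of Nags overlap the antisense gene Gm11586. Whether reads were counted by strand is not given in the sources used here, so reads of those overlaps cannot be told apart, and the values of Arg2 and Nags are uncertain to that extent.

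The stretches before the start of Otc and of Ass1 are shown because, among the members with a promoter window in the RefSeq table, Otc was called higher in liver than in kidney at P42 and Ass1 was high in both. Nags also has a window and was called higher in liver at P42, and its stretch is not printed. Each is the 250 bases before the RefSeq transcript start (GRCm38.p6, plus strand), at chrX:10252055-10252304 for Otc and chr2:31470020-31470269 for Ass1, and the capitals in the Otc sequence mark AAAGTTCA. The GENCODE M21 start of Ass1, at 31470207, lies before the RefSeq start, so the end of the Ass1 stretch falls within the GENCODE gene.
Otc: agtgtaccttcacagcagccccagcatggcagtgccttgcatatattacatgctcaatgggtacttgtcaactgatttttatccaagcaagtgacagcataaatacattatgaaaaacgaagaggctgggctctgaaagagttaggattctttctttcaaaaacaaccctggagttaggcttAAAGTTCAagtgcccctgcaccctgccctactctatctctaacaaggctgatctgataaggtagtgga
Ass1: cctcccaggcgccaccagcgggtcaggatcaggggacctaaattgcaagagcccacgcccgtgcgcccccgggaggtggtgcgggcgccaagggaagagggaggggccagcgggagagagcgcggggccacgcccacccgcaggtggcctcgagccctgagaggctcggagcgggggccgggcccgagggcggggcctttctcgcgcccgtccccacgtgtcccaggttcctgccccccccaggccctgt
The Otc stretch is poor in CG pairs and the Ass1 stretch is dense in them. Over the whole RefSeq window, from 250 bases before to 50 after the start, Otc had 44.3% G or C and 1 CG pair, and Ass1 had 74.0% and 27. The median of all 32851 windows was 52.7% and 7 pairs, and the windows of Nags (57.7%, 14 pairs), Oat (61.7%, 22 pairs) and Slc25a15 (60.7% with 15 pairs and 79.0% with 51 pairs at 2 starts) lay above it. Windows of Cps1, Asl, Arg1 and Arg2 were not used here. Both strands were searched for TTGCGCAA (the C/EBP palindrome), CAAAGTCCA and CAAAGGTCA (HNF4) and TGACGTCA (the cyclic AMP response element), which are held by 0.183%, 0.475%, 0.478% and 1.79% of all windows. None of them was found in these windows. The letters AAAGTTCA, searched after the Otc window had been read, are held by 1.19% of all windows and were found in that of Otc alone.

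Values are exon-level TPM, the abundance unit that scales each gene by its length and each library to a common total. Levels can be compared between genes by RNA-seq. Footprints come from the translated part of a message, and the exon-level label does not say that the length was limited to it. Footprint levels of different genes are therefore less comparable. The deposited genes summed to between 48.9% and 93.4% of the full TPM total in RNA-seq libraries and between 23.1% and 61.1% in those of Ribo-seq, and the lowest RNA-seq sum was that of E15.5 kidney replicate 2, next to 81.7% in replicate 1. Markers of other organs were found in E15.5 kidney: 12 hepatocyte markers had a median of 3.99% of their E15.5 liver level by mRNA (from 1.43% to 9.02%), and 6 adrenal markers summed to 970 and 566 TPM. In E15.5 liver 11 erythroid markers summed to 109864 and 124404 TPM by mRNA, and in P42 liver to 819 and 554. In E15.5 liver RNA-seq replicate 2, 5 heart markers summed to 238 TPM, against 1.46 in replicate 1. The labelled tissues otherwise held their own markers: hepatocyte markers in liver, all 11 proximal tubule markers at 1 TPM or more in P42 kidney (summing to 70124 and 49798 TPM), and all 6 nephron progenitor markers at 1 TPM or more in E15.5 kidney. These tissues are mixtures, so fewer cells of a type and less RNA per cell cannot be told apart in any value below.

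The genes that start the cycle were liver genes at both stages. Nags was listed at 15.03 and 17.1 TPM in the E15.5 liver libraries and at 37.3 and 43.2 TPM in P42 liver by mRNA. Outside liver its highest library was E15.5 kidney replicate 1 at 1.24 TPM, and it was listed at 0 in 4 libraries of brain, retina and heart. Cps1 had 86.4 and 58.6 TPM in E15.5 liver and 784 and 735 TPM in P42 liver. Its next highest mRNA group was E15.5 lung, with 1.47 and 1.39 TPM. So the libraries of liver did not overlap those of any other tissue for either gene.

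Otc had 35.6 and 25.7 TPM in E15.5 liver and 228 and 227 TPM in P42 liver. E15.5 kidney followed with 4.36 and 2.12 TPM, and P42 kidney had 0.0224 and 0.0116 TPM. Slc25a15, the carrier that exchanges ornithine and citrulline, was broader. It had 18.5 and 16.8 TPM in E15.5 liver, 66.9 and 73.8 in P42 liver, 17.1 and 9.02 in E15.5 kidney, and 47.9 and 51.1 in P42 kidney. At P42 the other tissues lay between 1.84 TPM in lung and 5.50 TPM in brain, below every kidney and liver library, whereas at E15.5 the kidney libraries, at 9.02 and 17.1 TPM, spanned those of lung and retina and lay on both sides of liver replicate 2.

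Ass1 and Asl, which make arginine, were high in both P42 liver and P42 kidney. Ass1 had 195 and 128 TPM in E15.5 liver, 1813 and 1748 in P42 liver, 46.1 and 27.0 in E15.5 kidney, and 2004 and 1813 in P42 kidney. It ranked 30 and 32 among all listed genes in the P42 kidney libraries and 59 in both P42 liver libraries. Brain, retina, heart and lung stayed between 0.980 TPM in P42 heart and 33.7 TPM in P42 retina. Asl had 26.0 and 31.0 TPM in E15.5 liver, 221 and 194 in P42 liver, 16.96 and 9.66 in E15.5 kidney, and 130.2 and 109 in P42 kidney. Its other libraries lay between 1.08 TPM in P42 heart and 13.6 TPM in E15.5 retina.

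The 2 arginases differed in where they were highest. Arg1, the cytosolic arginase of the cycle, had 63.9 and 54.3 TPM in E15.5 liver and 1468 and 1049 in P42 liver. Its next highest group was E15.5 retina, with 10.2 and 11.1 TPM. Arg2, the mitochondrial arginase, was low in liver. It had 1.27 and 0.392 TPM in E15.5 liver and 0.694 and 0.968 in P42 liver, and it was highest in P42 retina with 41.5 and 35.6 TPM, followed by E15.5 brain with 24.8 and 24.2 and P42 kidney with 19.2 and 19.7. Heart was also low, with at most 0.744 TPM in any library.

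Oat was expressed in every tissue. Its lowest library was P42 heart replicate 2 at 47.6 TPM, and its highest P42 liver replicate 2 at 318 TPM. At E15.5 lung led with 226 and 219.7 TPM, then heart with 147 and 137, and liver had 69.1 and 72.3, above retina alone. At P42 liver led with 242 and 318 TPM and kidney followed with 172 and 217, and retina, lung and brain overlapped. The order of the tissues for Oat was thus different at the 2 stages, while liver had the highest mean for Nags, Cps1, Otc, Asl, Arg1 and Slc25a15 at both.

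**Figure D1:**
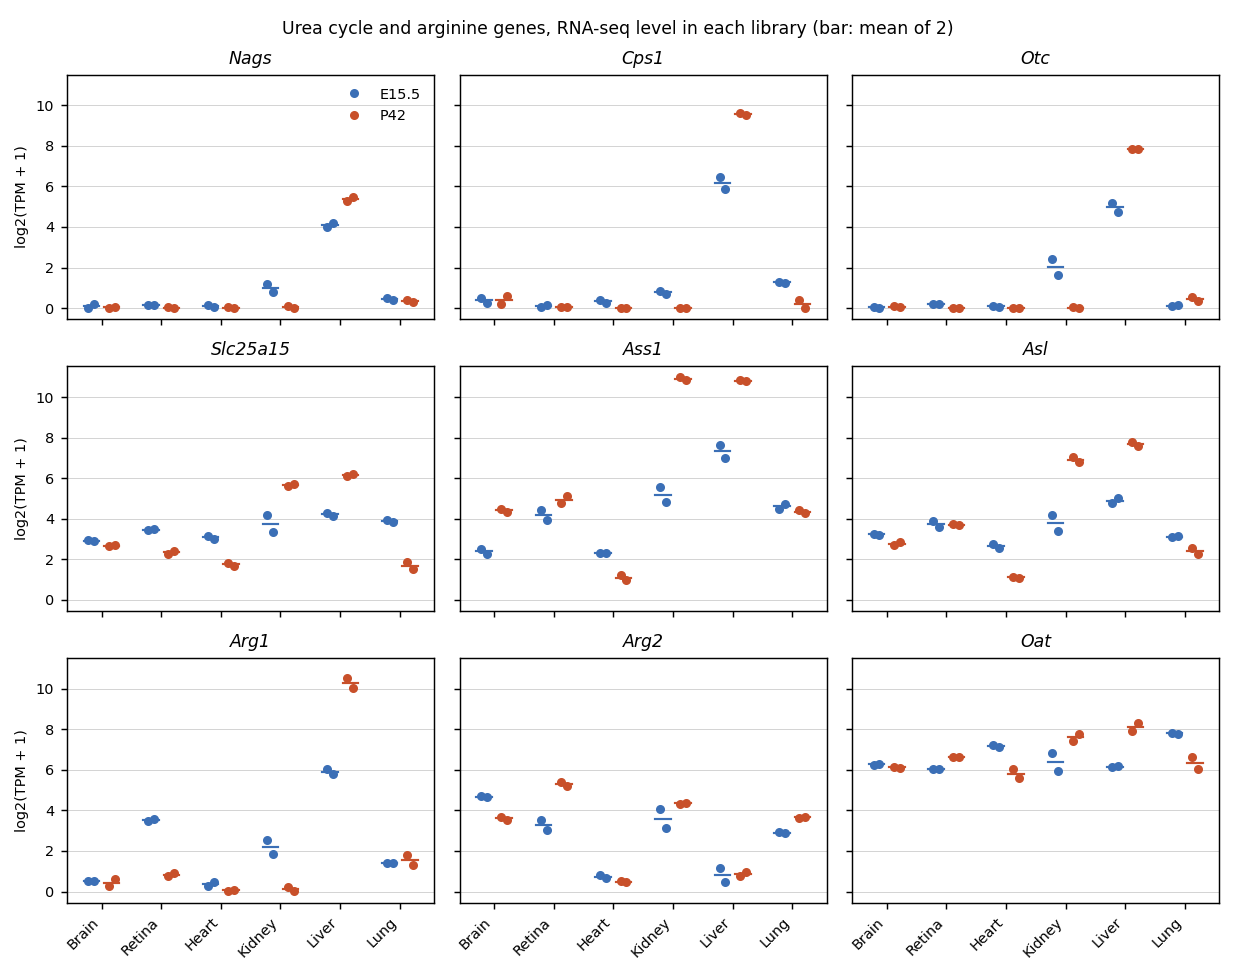
RNA-seq level of the 9 genes, as log2(TPM + 1), in each library of 6 tissues (horizontal axis) at E15.5 (blue) and P42 (orange), with a short bar for the mean of 2 replicates. Nags, Cps1, Otc and Arg1 stand out in liver, Ass1 and Asl are higher in P42 liver and P42 kidney than in any other group, and Arg2 is low in liver and heart.

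In liver, 8 of the 9 genes rose in mRNA between E15.5 and P42 and none fell. A gene was called, and is said to have risen or fallen, when limma, a linear model of log2(TPM + 1) fitted to all genes of the assay, gave a log2 difference of 1 or more in size with a Benjamini-Hochberg adjusted p under 0.05. Of 17171 genes tested, 10.3% were called higher and 37.2% lower at P42, and under median-of-ratios scaling, which sets the typical gene of each library equal, 23.8% and 20.0%. The median difference was 2.82 over the 9 genes and -0.57 over all genes tested. Arg1 rose most, by 4.37 ± 0.21 (SE, adjusted p = 2.96e-14), and mean TPM was 21.3 times its E15.5 value. Ass1 rose by 3.48 ± 0.23, Cps1 by 3.40 ± 0.18, Otc by 2.87 ± 0.18 and Asl by 2.82 ± 0.20. The smaller rises were those of Oat at 1.96 ± 0.24, Slc25a15 at 1.94 ± 0.21 and Nags at 1.27 ± 0.13 (adjusted p = 1.07e-08). Arg2 did not pass, with a difference of 0.04 ± 0.24 (adjusted p = 0.914).

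These 8 rises were called under all 16 alternative settings tried for each of them, with each of the 4 libraries left out and under 3 other ways of scaling (median of ratios, centring on the median gene, and equal sums after mitochondrial genes were left out). In the same comparison all 11 erythroid markers fell, with a median of -7.34. The 12 hepatocyte markers had 6 higher and 1 lower at P42 and a median of 1.55. Their part in the members' rise was not tested. All 6 periportal markers rose, with a median of 5.28, and 6 of 7 pericentral markers, with a median of 2.41.

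By footprint, 7 of the 9 members rose in liver and none fell, where 7.2% of 16715 genes tested were called higher and 30.5% lower (18.6% and 13.2% under median-of-ratios scaling). Cps1 went from 97.9 and 82.8 TPM to 2589 and 3571 TPM, a rise of 5.06 ± 0.32 (adjusted p = 2.07e-10). Arg1 rose by 3.60 ± 0.35, Asl by 2.70 ± 0.21, Ass1 by 2.35 ± 0.45 and Oat by 2.18 ± 0.22. Otc rose by 1.94 ± 0.21 and Slc25a15 by 1.90 ± 0.21. Nags had 13.004 and 11.5 TPM at E15.5 and 13.7 and 25.6 TPM at P42, and its difference of 0.58 ± 0.21 (adjusted p = 0.0231) was below the size set for a call. Without P42 liver replicate 1 Nags was called, at 1.00, and it was called at 1.75 under median-of-ratios scaling.

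In kidney the members went both ways. By mRNA, 4 rose and 2 fell, where 10.9% of all genes tested were called higher and 37.4% lower (21.1% and 17.8% under median-of-ratios scaling). The median difference was 0.75 over the members and -0.62 over all genes. Ass1 rose by 5.71 ± 0.23 (adjusted p = 1.90e-15), and its mean TPM was 52.2 times that of E15.5. On the log2(TPM + 1) scale this was the largest mRNA change of any member between the stages in these 6 tissues. By the plain ratio of mean TPM the fall of Otc in kidney, from 3.24 to 0.0170 TPM, was larger. Asl rose by 3.12 ± 0.20, Slc25a15 by 1.91 ± 0.21 and Oat by 1.202 ± 0.24. The rise of Oat was not called without E15.5 kidney replicate 2, the library with the low sum, where it was 0.76, nor with mitochondrial genes left out and the sums then made equal, where it was 0.96. Arg2 had 15.6 and 7.86 TPM at E15.5 and its difference of 0.75 ± 0.24 (adjusted p = 0.00776) was not called, but it was called without E15.5 kidney replicate 1 (1.21), under median-of-ratios scaling (1.63) and with centring (1.37).

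The kidney genes that fell were Arg1, by 2.08 ± 0.21, and Otc, by 2.01 ± 0.18 on the log2 scale. With a pseudocount of 4 TPM neither was called, at -0.90 and -0.83. Nags and Cps1 differed by -0.91 ± 0.13 and -0.75 ± 0.18, and neither was called. With a pseudocount of 0.25 TPM both were (-2.04 and -1.84), and Nags was also called without E15.5 kidney replicate 2 (-1.11) and with mitochondrial genes left out and equal sums (-1.02). In E15.5 kidney Otc stood at 10.6%, Arg1 at 6.35%, Nags at 6.05% and Cps1 at 0.985% of their E15.5 liver level, beside the hepatocyte markers at a median of 3.99%. From E15.5 to P42, 9 of those 12 markers fell in kidney, with a median difference of -3.91. Their part in the falls of Otc and Arg1 was not tested. The 11 proximal tubule markers all rose in the same comparison, with a median of 4.97, and the part of cell composition in the rises of Ass1 and Asl was likewise not tested.

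By footprint 3 members rose in kidney and 2 fell, where 10.0% of all genes tested were called higher and 32.2% lower (19.0% and 12.8% under median-of-ratios scaling). Ass1 went from 22.4 and 18.8 TPM to 979 and 882 TPM, a rise of 5.43 ± 0.45 (adjusted p = 1.00e-08). Asl rose by 2.68 ± 0.21 and Slc25a15 by 1.89 ± 0.21. Otc fell by 2.07 ± 0.21 and Arg1 by 1.23 ± 0.35. The fall of Arg1 was not called under median-of-ratios scaling, at -0.55, or when each difference was centred on the median gene, at -0.74. Oat, at 0.70 ± 0.22, and Arg2, at 0.64 ± 0.21, were not called, but under the same 2 settings Oat was called at 1.68 and 1.19 and Arg2 at 1.54 and 1.13.

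**Figure D2:**
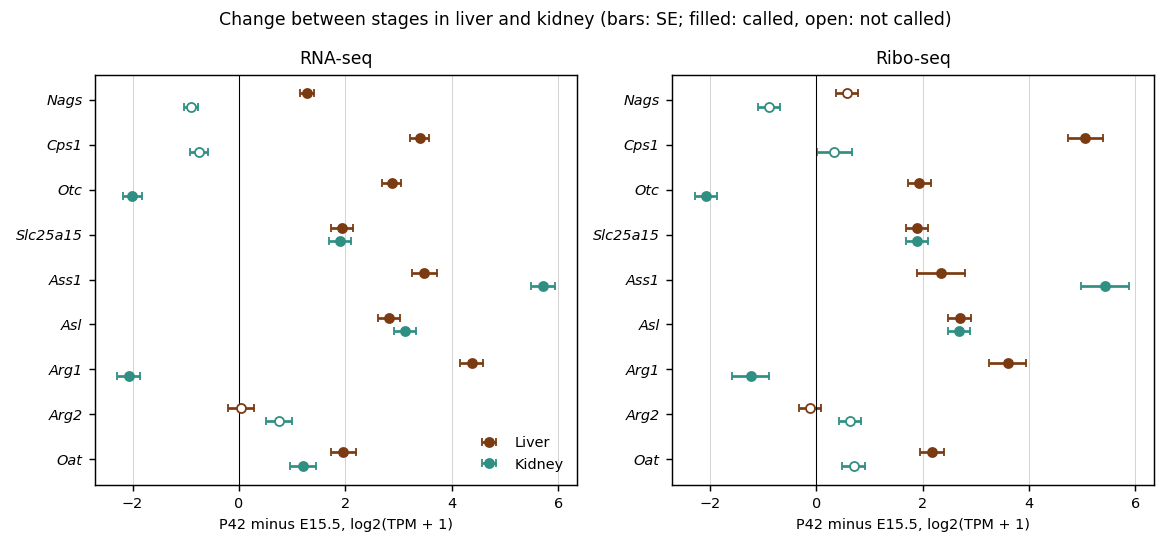
Difference between P42 and E15.5 on the log2(TPM + 1) scale (horizontal axis) for each gene in liver (brown) and kidney (teal), by RNA-seq on the left and Ribo-seq on the right. Bars are standard errors of the fit and filled points passed the threshold. Ass1 and Asl lie to the right in both tissues, and Otc and Arg1 lie on opposite sides of 0 in liver and kidney.

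The change between stages was then compared between the organs in the same model, by the interaction of tissue and stage. By mRNA 5 of 9 members were called, where 38.3% of all genes were. The change was more positive in liver for Arg1 (6.45 ± 0.30, adjusted p = 3.66e-14), Otc (4.88 ± 0.25), Cps1 (4.15 ± 0.25) and Nags (2.18 ± 0.19), and more positive in kidney for Ass1 (-2.23 ± 0.33, adjusted p = 5.25e-06). For Asl and Slc25a15 the changes in the organs differed by -0.30 ± 0.29 and 0.03 ± 0.29 (adjusted p = 0.404 and 0.944). By footprint 6 of 9 were called, where 27.5% of all genes were. They were the same 5 in the same direction, with Arg1 at 4.83 ± 0.49, Cps1 at 4.72 ± 0.46, Otc at 4.01 ± 0.30, Nags at 1.47 ± 0.29 and Ass1 at -3.08 ± 0.64, and Oat at 1.47 ± 0.32 (adjusted p = 0.00127). For Nags every kidney Ribo-seq library was under 1 TPM, and its change was called in neither organ alone (liver 0.58, kidney -0.89). With a pseudocount of 4 TPM its interaction was 0.78 and not called.

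At P42 the members separated liver from kidney into 3 sets. By mRNA 4 were called higher in liver and 1 lower, where 6.43% of all genes were called higher and 28.0% lower. Arg1 differed by 10.15 ± 0.21, Cps1 by 9.54 ± 0.18, Otc by 7.81 ± 0.18 and Nags by 5.30 ± 0.13 (adjusted p = 5.04e-20). In P42 kidney their mean TPM was 0.00766%, 0.00229%, 0.00747% and 0.105% of the liver value. Those kidney means were 0.0964, 0.0174, 0.0170 and 0.0422 TPM, near the floor, so the sizes of these differences are imprecise. Over the 16 alternatives the difference went from 8.25 to 11.8 for Arg1 and from 7.57 to 11.5 for Cps1. It went from 5.85 to 9.74 for Otc and from 3.45 to 7.12 for Nags. Arg2 was the member called lower in liver, by -3.49 ± 0.24 (adjusted p = 1.80e-11), and its mean in kidney was 23.4 times that in liver. The other 4 were not called: Asl differed by 0.79 ± 0.20, Oat by 0.52 ± 0.24, Slc25a15 by 0.50 ± 0.21 and Ass1 by -0.10 ± 0.23 (adjusted p = 0.775).

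The third set depends on how the libraries are scaled. Under median-of-ratios scaling and with differences centred on the median gene, Asl, Oat and Slc25a15 were also called higher in liver, with differences of 1.72, 1.45 and 1.42 under the former, while Ass1 was not called under any of the 3 other scalings (from -0.32 to 0.83). The median gene differed by -0.52 between P42 liver and kidney. Under median-of-ratios scaling 13.1% of genes were called higher and 14.7% lower. The 5 members called in the first fit were called in the same direction under each of the 16 alternatives.

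By footprint the same 5 members were called at P42, 4 higher and 1 lower in liver, where 5.81% of all genes were called higher and 23.8% lower (2020 genes higher and 2041 lower under median-of-ratios scaling). Cps1 differed by 9.66 ± 0.32, Arg1 by 8.92 ± 0.35, Otc by 7.80 ± 0.21, Nags by 4.23 ± 0.21 and Arg2 by -3.77 ± 0.21. Ass1 footprints stood at 693 and 1162 TPM in liver and 979 and 882 TPM in kidney, so the kidney libraries lay between those of liver. Its difference was -0.05 ± 0.45 (adjusted p = 0.946).

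At E15.5, 6 members were already called higher in liver than in kidney by mRNA and 1 lower, where 10.5% of all genes were called higher and 31.6% lower (17.4% and 17.9% under median-of-ratios scaling). Cps1 differed by 5.40 ± 0.18, Arg1 by 3.70 ± 0.21, Nags by 3.13 ± 0.13, Otc by 2.93 ± 0.18, Ass1 by 2.13 ± 0.23 and Asl by 1.09 ± 0.20, and Arg2 by -2.77 ± 0.24. The call of Asl was lost without E15.5 kidney replicate 2 (0.71) and without E15.5 liver replicate 2 (0.96). By footprint 5 were called higher and 1 lower, where 8.27% and 23.3% of all genes were (13.3% and 10.8% under median-of-ratios scaling). Those were Cps1 at 4.94 ± 0.32, Arg1 at 4.09 ± 0.35, Otc at 3.79 ± 0.21, Ass1 at 3.03 ± 0.45 and Nags at 2.76 ± 0.21, with Arg2 at -3.01 ± 0.21. Ass1 is therefore the member called higher in liver at E15.5 and not called at P42 by both assays.

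**Figure D3:**
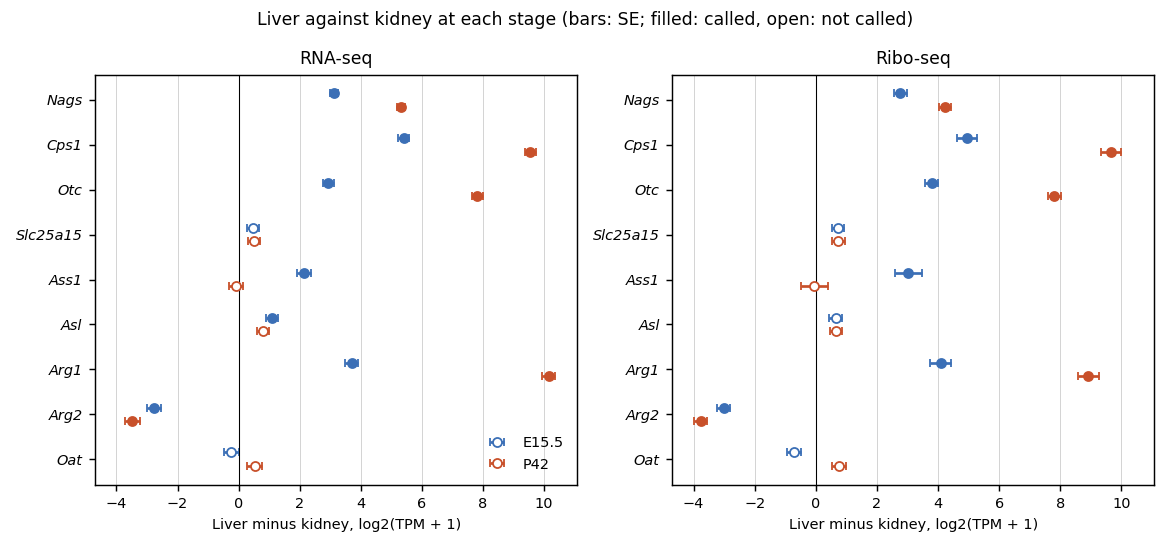
Liver minus kidney on the log2(TPM + 1) scale (horizontal axis) for each gene at E15.5 (blue) and P42 (orange), by RNA-seq on the left and Ribo-seq on the right. Bars are standard errors of the fit and filled points passed the threshold. Nags, Cps1, Otc and Arg1 lie farther to the right at P42, Ass1 moves to about 0, and Arg2 stays to the left.

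Cps1 had the highest footprint TPM of the members in P42 liver, where it ranked 21 among all listed genes in both Ribo-seq libraries and 117 and 132 in the RNA-seq libraries. Otc, Oat and Asl also ranked higher there in both Ribo-seq libraries than in either RNA-seq library, with Otc at 201 in both Ribo-seq libraries and at 412 and 432 by RNA-seq. The ratio of mean footprint to mean mRNA TPM is a relative measure within these tables, to be compared within a gene and not between genes. For Cps1 it was 1.25 in E15.5 liver and 4.06 in P42 liver. It was 1.08 and 0.521 for Ass1, 2.67 and 1.42 for Otc, and 0.451 and 0.462 for Slc25a15. In P42 kidney the ratio of Ass1 was 0.487 and that of Slc25a15 0.391.

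Translational efficiency, the change of footprints beyond that of mRNA, was tested in 1 model over all 48 libraries, for genes with a mean of at least 5 TPM by RNA-seq in each group compared. In liver 8 members passed this floor and 1 was called between the stages, where 23.5% of 6327 genes were (3.89% higher and 19.6% lower, and 8.71% and 12.1% when centred on the median gene). Cps1 rose by 1.67 ± 0.38 (adjusted p = 0.00111) and was called under all 19 alternatives, from 1.39 to 2.17. Ass1 differed by -1.13 ± 0.53 (adjusted p = 0.099), Otc by -0.93 ± 0.28 (adjusted p = 0.0106) and Nags by -0.70 ± 0.24 (adjusted p = 0.0281), and none of these was called. Without P42 liver Ribo-seq replicate 2 they were called, at -1.504, -1.21 and -1.12. All listed genes of that library summed to 60.8% of the full TPM total, against 43.4% in replicate 1, and the members to 7210 against 5076 TPM.

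None of the members tested for efficiency was called in kidney between the stages (5 tested, where 6.48% of all genes were called), between liver and kidney at E15.5 (4 tested, where 8.89% were), or between them at P42 (4 tested, where 0.956% were). The 4 genes tested in the last were Asl, Oat, Slc25a15 and Ass1, with differences from -0.13 to 0.23. By limma the count at an unadjusted p below 0.05 was also 0 in each of these 3 comparisons, and the lowest unadjusted p was 0.0984, for Ass1 between liver and kidney at E15.5. With no filter on low values 1 member was called between liver and kidney at P42, which was none of these 4 and lay under the floor in at least 1 organ.

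**Figure D4:**
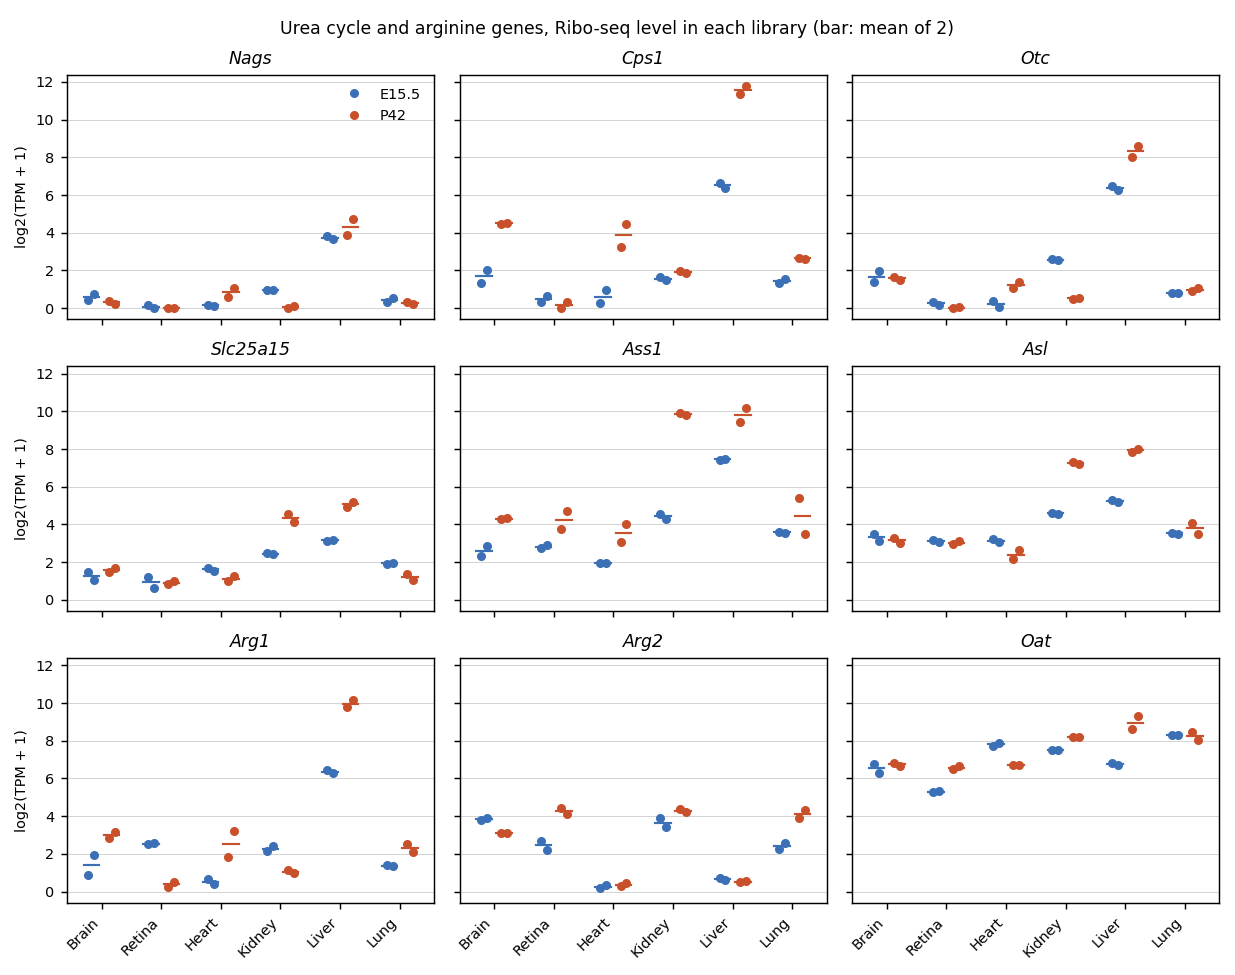
Ribo-seq level of the 9 genes, as log2(TPM + 1), in each library of 6 tissues (horizontal axis) at E15.5 (blue) and P42 (orange), with a short bar for the mean of 2 replicates. Cps1 in P42 liver, at 2589 and 3571 TPM, is the highest value of any member, and Cps1 also has 8.48 to 22.1 TPM in P42 brain and heart, where its mRNA is at most 0.534 TPM.

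In each of the other 4 tissues fewer members were called by mRNA than in kidney or liver. In brain 2 of 9 were called by mRNA, where 40.8% of all genes were (10.1% higher and 30.7% lower, and 19.2% and 12.9% under median-of-ratios scaling): Ass1 rose from 4.76 and 3.74 to 21.3 and 19.3 TPM (2.02 ± 0.23), and Arg2 fell from 24.8 and 24.2 to 11.6 and 10.7 TPM (-1.07 ± 0.24). The fall of Arg2 was not called under any of the 3 other scalings. In retina 3 were called, where 36.3% of all genes were. Arg2 rose from 10.7 and 7.28 to 41.5 and 35.6 TPM (2.01 ± 0.24), Arg1 fell from 10.2 and 11.1 to 0.701 and 0.862 TPM (-2.71 ± 0.21), and Slc25a15 fell by 1.12 ± 0.21. The opposite changes of the 2 arginases in retina were called under all 16 alternatives, while Slc25a15 was not called with a pseudocount of 4 TPM (-0.80), under median-of-ratios scaling (-0.78) or with mitochondrial genes left out and equal sums (-0.98).

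In heart 4 of 9 were called lower by mRNA, where 59.2% of all genes were called in either direction (2.11% higher and 57.1% lower, and 16.3% and 11.1% under median-of-ratios scaling): Asl at -1.56 ± 0.20, Oat and Slc25a15 each at -1.34, and Ass1 at -1.22 ± 0.23. The median gene differed by -1.24 there. None was called under median-of-ratios scaling, and under that scaling Oat (0.66), Slc25a15 (0.30) and Ass1 (0.17) lay on the other side of 0. In lung 3 were called lower, where 54.1% of all genes were called (8.67% higher and 45.4% lower, and 20.8% and 13.2% under median-of-ratios scaling): Slc25a15 at -2.21 ± 0.21, Oat at -1.47 ± 0.24 and Cps1 at -1.07 ± 0.18. Cps1 was not called without P42 lung replicate 2, and at most 1.47 TPM of it was found in any lung library. Only Slc25a15 was called under all 16 alternatives.

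In P42 brain and heart, footprints of Cps1 and Arg1 were listed at higher levels than their mRNA, which was at most 0.534 TPM for either gene. In brain 3 of 9 members were called by footprint, where 31.3% of all genes were: Cps1 at 2.80 ± 0.32, Ass1 at 1.71 ± 0.45 and Arg1 at 1.59 ± 0.35. In heart 5 were called, where 47.1% of all genes were (8.79% higher and 38.3% lower, and 18.7% and 8.16% under median-of-ratios scaling): Cps1 at 3.24 ± 0.32, Arg1 at 1.99 ± 0.35, Ass1 at 1.57 ± 0.45 and Otc at 1.01 ± 0.21 higher, and Oat at -1.08 ± 0.22 lower. Otc was not called without E15.5 heart replicate 2 (0.84), without P42 heart replicate 2 (0.86) or with a pseudocount of 4 TPM (0.36), and Ass1 was not called without P42 heart replicate 2 (1.09, adjusted p = 0.0824 by limma). In P42 brain Ribo-seq the 12 hepatocyte markers stood at a median of 0.791% of their P42 liver level, and Cps1 at 0.698%, Arg1 at 0.700% and Otc at 0.616%. In P42 heart Ribo-seq the markers had a median of 0.589%, Arg1 0.533%, Cps1 0.480% and Otc 0.416%. By mRNA the marker medians were 0.0275% in brain and 0.000443% in heart. The markers' summed footprint level was 1544 and 1720 TPM in the P42 brain libraries and 400.03 and 1011 TPM in those of heart, against 107573 and 136688 TPM in liver, with 1 marker at 0 in brain replicate 1 and none at 0 in the other 3 libraries of brain and heart. Cps1 in the heart libraries was 8.48 and 21.1 TPM, lower in the library with the lower marker sum. The part of liver material in these values was not tested.

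In P42 heart Nags had footprints at 4.06% of its liver level (0.530 and 1.06 TPM), and its difference of 0.69 ± 0.21 was not called, but it was called under each of the 3 other scalings (1.18 to 1.38) and with a pseudocount of 0.25 TPM (1.53). When footprint calls were left out where the higher group was under 5% of the highest tissue of its stage, a setting added after the data were seen, 0 calls remained in brain and 1 in heart, the fall of Oat. That fall was not called under any of the 3 other scalings, and Oat lay at 0.24 under median-of-ratios scaling and 0.03 with mitochondrial genes left out and equal sums. Brain Ass1 was left out by this setting too, and its mRNA rose as given above. The setting also left out the footprint fall of Arg1 in kidney and the footprint rises of Ass1 in retina and of Cps1 in lung.

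**Figure D5:**
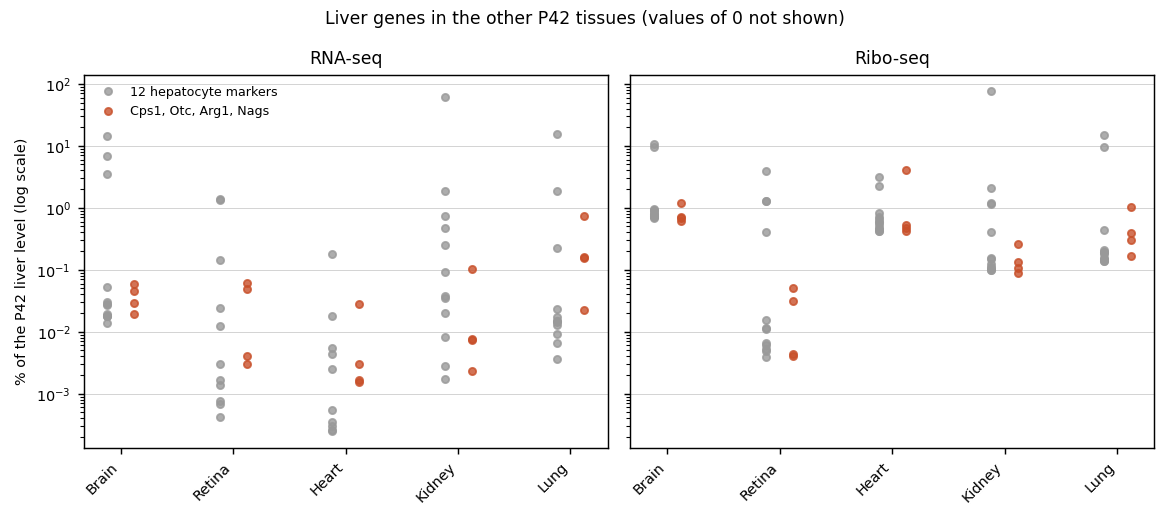
Mean TPM in 5 P42 tissues (horizontal axis) as a percentage of P42 liver, on a log axis, for 12 hepatocyte markers (grey) and for Cps1, Otc, Arg1 and Nags (orange), by RNA-seq on the left and Ribo-seq on the right. Values of 0 are not drawn. In brain and heart Ribo-seq most markers and Cps1, Otc and Arg1 lie close together below 1%, and Nags in heart lies at 4.06%.

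In retina 4 of 9 members were called by footprint, where 28.0% of all genes were: Arg2 at 1.82 ± 0.21, Ass1 at 1.42 ± 0.45 and Oat at 1.26 ± 0.22 higher, and Arg1 at -2.15 ± 0.35 lower. The 2 arginases thus changed in opposite directions by both assays. Ass1 had 12.4 TPM in P42 retina replicate 1 and 25.5 TPM in replicate 2, in which 11 proximal tubule markers summed to 571 TPM against 30.4 in replicate 1, and without replicate 2 (0.93), or without E15.5 retina replicate 1 (1.34), it was not called. In lung 2 were called, where 33.9% of all genes were (15.3% higher and 18.5% lower, and 18.4% and 11.3% under median-of-ratios scaling): Arg2 at 1.68 ± 0.21 and Cps1 at 1.18 ± 0.32. Lung Cps1 footprints stood at 5.41 and 4.99 TPM at P42, against 2589 and 3571 TPM in P42 liver, and its lung mRNA was called lower. The footprint rise of Cps1 was not called with a pseudocount of 4 TPM or with mitochondrial genes left out and equal sums. The part of liver material in it was not tested. Lung Ass1 had 41.6 and 10.3 TPM at P42, with proximal tubule markers summing to 2019 and 298 TPM, and was not called at 0.88 ± 0.45. Without P42 lung Ribo-seq replicate 2, 4 members were called in lung, with Ass1 at 1.84 and Arg1 at 1.13 besides Arg2 and Cps1.

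Among 20 genes that use arginine and ornithine for other products or carry them, 3 rose and 8 fell in liver by mRNA, with a median of -0.54 (all genes -0.57), near the shares over all genes of 10.3% higher and 37.2% lower. Agmat, an agmatinase, rose by 2.97 ± 0.17, Gamt, which completes creatine synthesis, by 2.96 ± 0.20, and Slc7a2, a cationic amino acid transporter, by 1.68 ± 0.23. Slc7a1, another such transporter, fell by 4.19 ± 0.20, and Odc1, the ornithine decarboxylase that starts polyamine synthesis, fell by 3.95 ± 0.21. Odc1 went from 338 and 317 TPM to 16.9 and 24.1 TPM in liver. In kidney 3 of the 20 rose and 6 fell, where 10.9% and 37.4% of all genes did. Gatm, which uses arginine in the first step of creatine synthesis, rose there by 4.72 ± 0.23, from 31.9 and 17.2 to 607 and 688 TPM, and fell in liver by 2.02 ± 0.23. At P42, 3 of the 20 were called higher in liver than in kidney and 9 lower, where 6.43% and 28.0% of all genes were. Gatm differed by -6.53 ± 0.23 and Gamt by 3.46 ± 0.20, so the 2 enzymes of creatine synthesis were called on opposite sides of the liver and kidney comparison by mRNA.

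Among 17 genes of ammonia, glutamine and aspartate supply and urea transport, 10 rose and 3 fell in liver by mRNA, where 10.3% and 37.2% of all genes did, with a median of 1.49 (all genes -0.57). Gpt, an alanine aminotransferase, rose by 5.22 ± 0.26, Aqp9, a channel for glycerol and urea, by 4.41 ± 0.13, Gls2, the liver glutaminase, by 3.76 ± 0.17 and Slc38a3, a glutamine transporter, by 3.29 ± 0.18. Slc14a1, a urea transporter also known from red cells, fell by 5.31 ± 0.18. In kidney 6 of the 17 rose and none fell by mRNA (all genes 10.9% and 37.4%), with a median of 0.72, and the largest of them was Slc14a2, the urea transporter of the collecting duct, at 3.74 ± 0.20. At P42, 7 were called higher in liver and 4 lower (all genes 6.43% and 28.0%). Gls2 differed by 7.04 ± 0.17, with 167 and 178 TPM in liver and 0.287 and 0.340 TPM in kidney.

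Among genes that join ornithine to proline and glutamate, by mRNA Aldh18a1, which makes pyrroline-5-carboxylate, fell by 4.98 ± 0.20 in liver and by 4.17 ± 0.20 in kidney, and Pycr1, which makes proline from it, fell by 2.06 ± 0.18 and 2.93 ± 0.18. Among those that break proline down, Prodh rose by 3.68 ± 0.20 in liver and 3.53 ± 0.20 in kidney, Prodh2 by 1.07 ± 0.18 and 2.76 ± 0.18 (by footprint -0.11 ± 0.33 in liver, not called), and Aldh4a1 by 2.18 ± 0.21 in kidney, with 0.58 ± 0.21 in liver. All 3 genes that start pyrimidine synthesis fell in liver by mRNA, where 37.2% of all genes did. Cad, which holds the cytosolic carbamoyl phosphate synthetase, fell by 3.88 ± 0.20 in liver and by 3.41 ± 0.20 in kidney, where Cps1 of the mitochondrion rose in liver. Umps fell by 1.59 ± 0.20 and Dhodh by 1.29 ± 0.19 in liver. By mRNA Cad was the 1 of the 3 called in kidney, where 37.4% of all genes were called lower. By footprint Umps was called there too, at -1.52 ± 0.19 (all genes 32.2% lower). None of the 3 differed between the organs at P42 by enough to be called.

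Of 11 regulators of liver metabolism, 5 rose in liver and none fell by mRNA, where 10.3% and 37.2% of all genes did, with a median of 0.34 (all genes -0.57). Cebpb rose by 3.79 ± 0.21, Gcgr, the glucagon receptor, by 2.60 ± 0.18, Cebpa by 2.57 ± 0.22, Foxa2 by 2.10 ± 0.14 and Foxa1 by 1.61 ± 0.18. By footprint neither Foxa2, at 0.93 ± 0.30, nor Foxa1, at 0.11 ± 0.20, was called in liver. In kidney 5 rose and 2 fell by mRNA (all genes 10.9% and 37.4%). Gcgr rose there by 3.33 ± 0.18 and Cebpa by 1.61 ± 0.22, and Foxa1 and Foxa3 fell by 1.99 ± 0.18 and 1.43 ± 0.17. At P42, 6 were called higher in liver and 2 lower (all genes 6.43% and 28.0%), led by Foxa3 at 5.62 ± 0.17 and Foxa2 at 4.87 ± 0.14.

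For each member, the genes of most similar RNA-seq pattern over the 12 tissue and stage means were listed. Among 12473 genes that reached 20 TPM in a group, Pearson's r on the log2(TPM + 1) scale was highest with Clec4f, Hsd17b13 and Ces2a for Cps1 (0.994 to 0.992), with Saa4, Apoc4 and Cpn2 for Otc (0.998 to 0.997), with Serpina11, Ugt2b35 and Cpn2 for Nags (0.998 to 0.994), and with Slc27a5, Otc and Serpina7 for Arg1 (0.953 to 0.951). For Ass1 they were Aass, Fah and Scly (0.964 to 0.958), for Asl Sephs2, Gstz1 and Slc37a4 (0.976 to 0.974), and for Slc25a15 Nop9, Slc35d1 and Ahcy (0.980 to 0.957). Arg2 was most like Osbpl6, Mok and Lrrc71 (0.937 to 0.919), and Oat like Idua, Pafah2 and Lamp2 (0.934 to 0.841). These correlations are descriptions over 12 points that share libraries and tissues.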

How the data were processed

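Frozen tissue was lysed with cycloheximide, and RNA-seq used a poly(A) mRNA kit and Ribo-seq a footprint kit with ribosomal RNA depletion, per the labels' protocols. The deposited values are exon-level TPM per gene in 4 tables of 12 libraries, so stage and table cannot be told apart. The submitters' processing notes name CASAVA 1.8.2, cutadapt 1.8.1, TopHat2 2.0.14, featureCounts 1.6.2 and GRCm38.p6. Not given in the sources used here were the annotation release, the handling of strand and the total behind the TPM. TPM keep no depth, so the depth and counting precision of each library are unknown.

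Values were tested as log2(TPM + 1) with limma 3.58.1 in R 4.3.3 (trended variance), in 1 fit per assay over its 24 libraries and, for translational efficiency, over all 48. A fold on this scale understates the change of low genes. Genes needed 1 TPM in at least 2 libraries, and p-values were adjusted by Benjamini and Hochberg over all genes tested. Calls required a log2 difference of 1 or more in size at an adjusted p under 0.05. The fits were tried on data simulated with independent noise, with changes added only to genes above a low level and with no shift in scaling. Recovery of changes in low genes and effects of scaling were not tested in this way. Replicates are biological per the design text, and whether they are single animals is not stated. The SE and p-value of a gene use its replicate spread pooled over all groups of the fit and moderated by limma. They do not reflect the spread of the groups compared alone.

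Gene identifiers (version dropped) were matched to GENCODE M21, 9 of 9 for the members and 21952 of 22055 for all genes. All members are named. Of each pathway list, up to 6 genes called by mRNA in liver, in kidney or between them at P42 are named by size of difference, and for each member the 3 most correlated genes; counts over the list of proline and glutamate genes are not reported here. The members and lists were chosen with earlier results of these data known. Alternatives were other pseudocounts, filters and scalings, a replicate block and leaving out each library; library weights, a minimum mean in the groups compared and the footprint setting of 5% were added after the data were seen.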

Additional observations from a re-analysis of the deposited data

Results flagged for a closer look

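The members listed here changed differently between the stages in liver and in kidney, by the interaction test of limma. Each value is the change in liver minus that in kidney, on the log2(TPM + 1) scale. By mRNA it was 6.45 for Arg1, 4.88 for Otc, 4.15 for Cps1 and 2.18 for Nags, which rose in liver, and -2.23 for Ass1, which rose in both organs. By footprint it was 4.83 for Arg1, 4.72 for Cps1, 4.01 for Otc, 1.47 for Nags, 1.47 for Oat and -3.08 for Ass1. The footprint value of Nags was 0.78 and not called with a pseudocount of 4 TPM. Of 12 hepatocyte markers, 9 fell and 1 rose in kidney between the stages by mRNA, with a median difference of -3.91. Their part in these values was not tested.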

How the results depend on the processing

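Of 183 member results, 87 were called. Among recomputations of all 183, 2892 kept their call or stayed not called, 58 gained a call, 45 lost one and 8 reversed. A reversal is a called result that changed sign, or a call gained in the other direction. Results that stayed not called were counted as kept whatever their sign. Some of them changed sign, as Oat did in brain by mRNA (-0.14, and up to 0.62 under the other scalings). All reversals were in heart: by mRNA Oat 0.66, Slc25a15 0.30 and Ass1 0.17 under median-of-ratios scaling, Ass1 0.024, Otc 1.16 and Nags 1.16 when centred on the median gene, and by footprint Oat 0.24 under median-of-ratios scaling and 0.032 with equal sums, a setting that in all cases here also leaves out mitochondrial genes. Members called by mRNA fell from 2 to 1 in brain under a pseudocount of 4 and each other scaling, and in heart from 4 to 1 (pseudocount of 4, equal sums), 0 (median of ratios) and 2 (centred). Between liver and kidney at P42 they went from 5 to 8 by both assays under median of ratios and centring. By footprint the 5% setting left 0 in brain, 1 in heart and 1 in lung, and lung had 1 (pseudocount of 4, equal sums) or 4 (median of ratios). The 5% setting also left out the kidney fall of Arg1 and the retina rise of Ass1. Efficiency calls went from 1 to 2 in liver (median of ratios) and from 0 to 1 between the organs at P42 (no filter). Leaving out 1 library gave 3 to 5 calls in heart and 2 to 4 in lung by footprint, and 1 to 4 for efficiency in liver, the 3 without P42 heart replicate 2, the 4 without P42 lung replicate 2 or P42 liver Ribo-seq replicate 2, and 2 for efficiency without E15.5 liver RNA-seq replicate 1 or Ribo-seq replicate 2. The causes were not tested. Over all genes, calls by mRNA went from 10171 to 4689 (median of ratios) and 6691 (centred) in heart, from 9283 to 5833 in lung (median of ratios) and from 5916 to 3753 between the organs at P42 (pseudocount of 4). With a pseudocount of 4 footprint calls went from 5238 to 3214 in brain, 4677 to 2697 in retina, 7870 to 4437 in heart, 7046 to 4500 in kidney, 6299 to 3992 in liver, 5661 to 3531 in lung, 5270 to 2909 and 4949 to 2718 between the organs at E15.5 and P42, and 4604 to 2870 for the interaction; heart also had 4531, 5079 and 4614 under the other scalings. Efficiency calls ranged from 754 (stricter filter) to 3580 (no filter) in liver around 1484, from 148 (library weights) to 1797 (no filter) in kidney around 557, from 288 (stricter filter) to 2189 (no filter) between the organs at E15.5 around 808, and from 28 (stricter filter) to 1082 (no filter) at P42 around 61. Leaving out a kidney or liver library moved the last 3 to between 207 and 1349, 524 and 1457, and 36 and 116. Replicate differences of same-numbered libraries correlated over genes at -0.42 to 0.33, the highest being RNA-seq with Ribo-seq of P42 liver. Whether such libraries share an origin was not tested. With the replicate block 22 of 22 counts and 183 of 183 member results were the same. That block is a term for the replicate number common to all groups of a fit, so it cannot represent a pairing within a tissue. TPM give no depth, which limits the low values.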
